A study of Mus musculus with 4 samples.

Results

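The keratin genes are the genes whose symbol on the array platform is Krt followed by digits only, read through probe sets that name 1 gene. The rule found 44 keratins, covered by 55 probe sets, among 18193 genes. Of these, 5 are keratins of simple, single-layered epithelium (Krt7, Krt8, Krt18, Krt19 and Krt20), 15 are keratins of stratified, many-layered epithelium, 10 are hair keratins, 8 belong to the inner root sheath of the hair follicle and 6 were put in none of these classes. By protein type, 23 are type I and 21 are type II. The 4 genes with a letter after the digits (Krt6a, Krt6b, Krt33a and Krt33b) lie outside the rule and are given separately.

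Keratins are the intermediate filament proteins of epithelial cells. A filament is built from obligate pairs of an acidic type I and a basic type II chain, so each epithelium makes at least a matched pair. Krt8 and Krt18 form the pair that appears first in the embryo and persists in simple epithelia. Krt5 and Krt14 mark the basal layer of stratified epithelia, Krt1 and Krt10 the suprabasal epidermis, and Krt4 and Krt13 the suprabasal layers of mucosa such as the oesophagus. Loss of keratins and gain of vimentin accompany epithelial-mesenchymal transition, in which the zinc-finger repressor Snai1 takes part.

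RNA was measured on 4 arrays, 1 for each of 4 groups of mouse embryonic stem cell derivatives. Embryoid bodies were formed as hanging drops and then kept in suspension in medium for spontaneous differentiation, and were collected on day 5 from control cells (genotype F/F) and from Snai1 knockout cells. Teratomas formed after control or Snai1 knockout cells were placed under the skin of the hind limbs. The hosts were male nude mice, 6 weeks old, and the tumours were taken at week 6. Embryoid body RNA was column-purified and teratoma RNA was taken up in Trizol, so tissue and extraction cannot be told apart. Nude mice lack mature T cells but keep other host cells, so teratoma RNA can include host tissue. The labels do not say how many clones, embryoid bodies or tumours each RNA came from.

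Values are log2 expression values with no true zero. The median over all non-control probe sets of an array served as its floor. It was 4.71 for the control and 4.73 for the knockout embryoid body array, and 5.08 for the control and 5.04 for the knockout teratoma array. A gene is called measured in a comparison if at least 1 of the 2 arrays reached its floor, and a value below the floor was raised to it, which makes the difference a bound. Higher or lower by 2-fold means a log2 difference of at least 1. With 1 array per group there is no replicate spread and no test, so every difference below compares these arrays only, and the number of arrays limits the precision. The only spread that could be computed is between probe sets of the same gene, pooled over genes as an SD. For knockout minus control it was 0.29 (embryoid bodies) and 0.28 (teratomas), and for teratoma minus embryoid body 0.66 (control) and 0.65 (knockout). Snai1 itself read 4.78 and 3.45 in embryoid bodies (control, then knockout) and 3.59 and 3.44 in teratomas, so only the control embryoid body array reached its floor. Whether its probe set lies in the deleted part is not given. The pluripotency genes Pou5f1, Nanog and Sox2 lay above the floor on all arrays. The neuronal genes Tubb3, Stmn2 and Snap25 and the muscle genes Myog, Acta1 and Ckm lay above it on both teratoma arrays, whereas the cartilage gene Acan lay below it on all arrays.

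Of the 44 keratins, 19 reached the floor on at least 1 array, 11 did so on all 4 arrays and 25 on none. The control embryoid body array had 16 keratins at or above the floor, the knockout array 14, and each teratoma array 16. Simple keratins were detected throughout: Krt7, Krt8, Krt18 and Krt19 lay above the floor on all 4 arrays, and Krt20, a keratin of intestinal epithelium, on none. Stratified keratins above the floor numbered 6 in the control embryoid bodies, 4 in the knockout and 8 in each teratoma. Those below the floor everywhere were Krt2, Krt12, Krt16, Krt76, Krt77 and Krt79. Hair and inner root sheath keratins mostly stayed under it, with 8 of 10 and 7 of 8 below the floor on all arrays. In the unclassed group Krt23, Krt24 and Krt222 lay below the floor on all arrays.

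**Figure D1:**
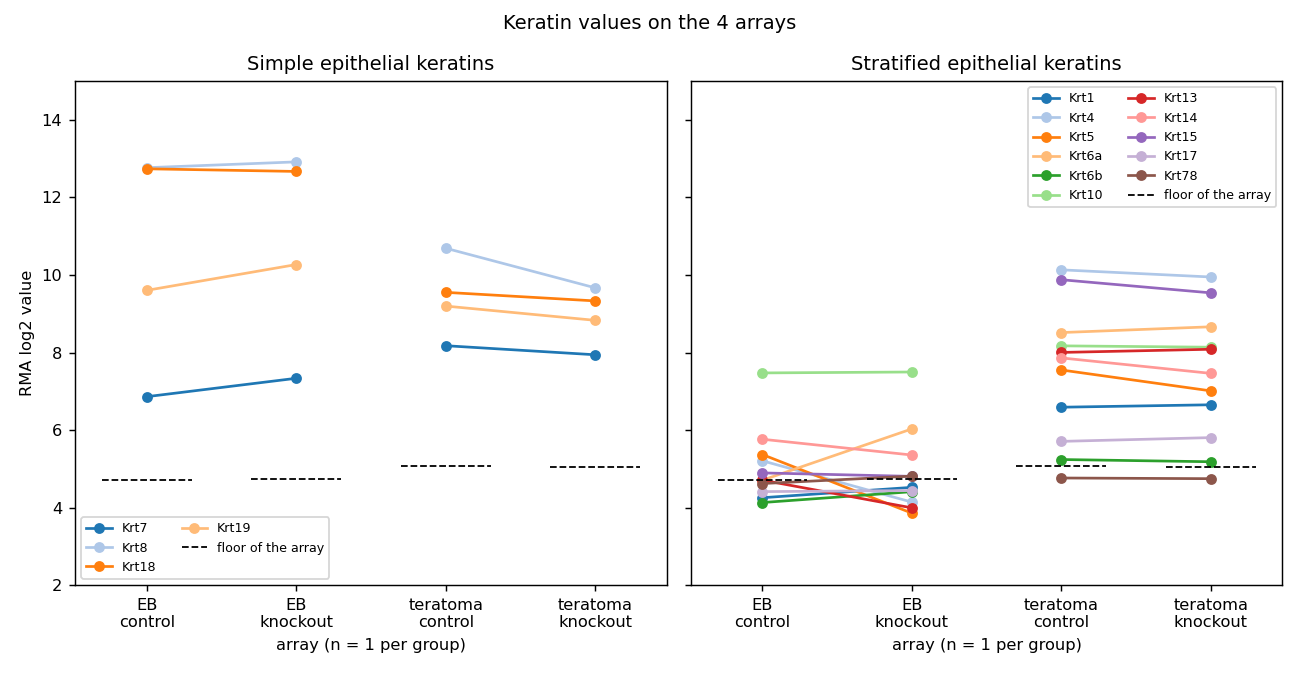
RMA log2 values (vertical axis) of simple keratins (left) and of stratified keratins with the lettered Krt6a and Krt6b (right) on the 4 arrays, with 1 point per gene and array, lines joining control and knockout of a tissue, and dashes at each array's floor. Krt8 and Krt18 lie above 12 in embryoid bodies and below 11 in teratomas, while Krt4, Krt13 and Krt15 lie near or below the floor in embryoid bodies and at 8.0 to 10.13 in teratomas; levels of different genes come from different probes and are not comparable.

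The type II keratin Krt8 and its type I partner Krt18 lie next to each other in the RefSeq annotation, with 0 protein-coding genes between them, although the other 22 type I keratins on the array lie on chromosome 11 and the 21 type II keratins on chromosome 15. Their upstream sequences are shown because Snai1 is a repressor that binds the E-box CAGGTG. Each is the 250 bases before the transcription start, from RefSeq on build GRCm38.p6, read 5′ to 3′ along the gene, with CAGGTG or its reverse complement CACCTG in capitals.

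Krt8 (chr15:102004343-102004592, minus strand): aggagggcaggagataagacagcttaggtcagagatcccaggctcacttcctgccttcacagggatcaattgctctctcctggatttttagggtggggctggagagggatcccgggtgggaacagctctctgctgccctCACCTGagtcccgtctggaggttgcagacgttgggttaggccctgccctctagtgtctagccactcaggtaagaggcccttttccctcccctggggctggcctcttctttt

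Krt18 (chr15:102027966-102028215, plus strand): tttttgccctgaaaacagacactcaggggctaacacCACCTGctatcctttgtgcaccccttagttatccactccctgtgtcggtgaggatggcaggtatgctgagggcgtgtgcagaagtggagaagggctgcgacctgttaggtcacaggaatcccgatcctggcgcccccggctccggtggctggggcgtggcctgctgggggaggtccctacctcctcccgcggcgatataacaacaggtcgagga

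The capitals start 111 bases before the start of Krt8 and 214 bases before that of Krt18, both as CACCTG. The same letters start 44 bases before the start of Krt7, while the window of Krt20 holds neither form. No upstream sequence was available for Krt19, Krt4 or Krt15. Of 32 keratin promoters in the table, from 31 keratin genes, 11 hold CAGGTG on either strand, against 17.2% of all 32851 promoter entries of this length. Any E-box, CANNTG, is in 25 of the 32 and in 66.2% of all entries. A match is a string of letters and not a shown binding site, and no binding was measured here.

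Removal of Snai1 was compared first in embryoid bodies, asking whether keratins differ without this repressor. No keratin passed 2-fold when values under the floor were raised to it. Of 17 measured keratins, 0 were at least 2-fold higher, against 2.18% of 12282 measured genes, and 0 were at least 2-fold lower, against 3.98%. The median over measured keratins was 0.10 and over all measured genes 0.03. Simple keratins had a median of 0.31 over their 4 measured members, and stratified keratins one of -0.09 over 7.

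Krt19, a small type I keratin of ducts and other simple epithelia, had the largest difference among the 4 measured simple keratins in embryoid bodies. It read 9.60 in control and 10.27 in knockout embryoid bodies, a difference of 0.66 or 1.59-fold. Krt7, a type II keratin of ducts and trophoblast, read 6.86 in the control and 7.34 in the knockout, a difference of 0.47. These values exceed the pooled SD between probe sets, but each gene has 1 probe set and neither reaches 2-fold. The Krt8 and Krt18 pair was nearly level. Krt8 read 12.77 in the control and 12.92 in the knockout, a difference of 0.15, and its 3 probe sets ranged from 0.15 to 0.25. Krt18 read 12.74 in the control and 12.67 in the knockout, a difference of -0.07.

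Other genes of simple epithelium were set beside these keratins in the same embryoid bodies. A list of 10 such markers, including adhesion, tight junction and splicing genes, had a median of 0.92, with 10 of 10 above 0. Of the list, 3 were at least 2-fold higher, against 2.18% of all measured genes. The tight junction gene Cldn4 differed by 1.92, the transcription factor gene Elf3 by 1.33, the splicing regulator gene Esrp1 by 1.15, Rab25 by 0.95, Cldn6 by 0.93 and the adhesion gene Epcam by 0.92. Their summed level, as log2 of the sum of linear values, was 13.31 in control and 14.16 in knockout embryoid bodies. These 6 are the largest of the list, and its smallest were Spint2 at 0.67 and Cldn7 at 0.50, on either side of Krt19 at 0.66. The difference between the lists was not tested.

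**Figure D2:**
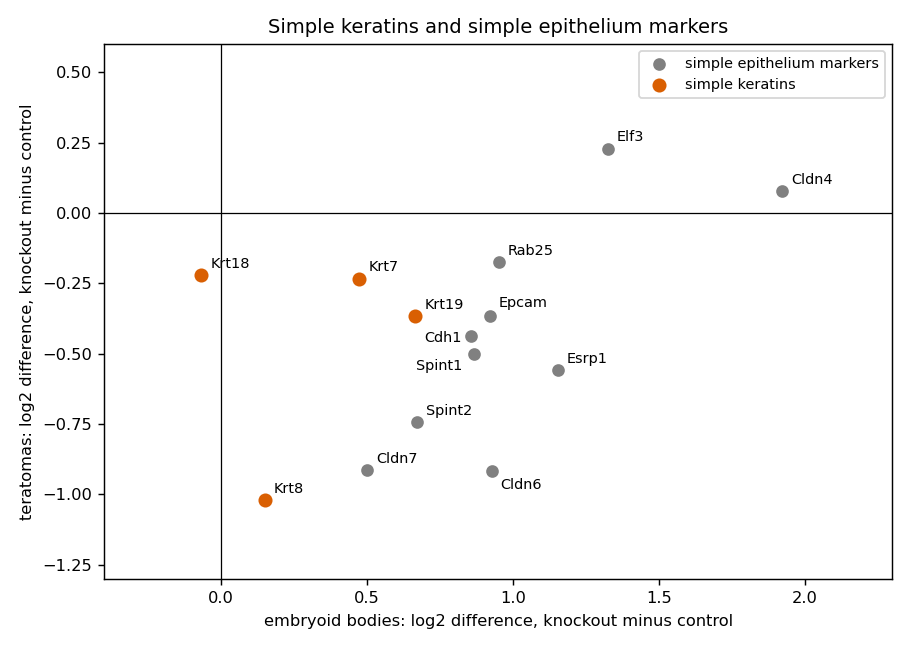
Log2 difference, knockout minus control, in embryoid bodies (horizontal axis) against teratomas (vertical axis) for the 4 measured simple keratins (orange) and 10 simple epithelium markers (grey), 1 array per group. All 10 markers lie right of 0 at 0.50 to 1.92, whereas Krt8 and Krt18 lie at 0.15 and -0.07, and Krt8 is the lowest point at -1.02.

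Among other epithelia that carry simple keratins, markers of extraembryonic endoderm and mesothelium mostly differed in the other direction, while trophoblast markers split. Over all measured genes 3.98% were at least 2-fold lower and 2.18% higher. Extraembryonic endoderm genes had a median of -1.28, with 5 of 10 at least 2-fold lower and 1 higher. Their summed level was 14.36 in control and 12.84 in knockout embryoid bodies. Among them the fetal plasma protein gene Afp differed by -4.64 and the retinol carrier gene Rbp4 by -3.20. Sox17 was the 1 at least 2-fold higher, at 1.23, while Gata4 differed by 0.35 and Gata6 by -0.31. Of 4 mesothelial markers 2 were measured, and both were at least 2-fold lower, Upk1b at -2.22 and Upk3b with a bound of -3.78. Upk3b lay under its floor in the knockout, so its direction was fixed in advance. Wt1 and Msln were below the floor on both arrays. The mesothelial summed level was 9.29 in control and 6.42 in knockout embryoid bodies. Trophoblast markers, a list that includes Krt7 itself, split, with a median of 0.47 and 3 of 5 measured above 0. Gata3 differed by 1.30, Tfap2c by 0.62, Cdx2 by -1.70 and Hand1 by -1.87, and Elf5 and Tpbpa lay below the floor. The summed level of this list was 9.91 in control and 9.36 in knockout embryoid bodies. The part of these cell types in the keratin values was not tested. In a bulk sample, fewer cells of a type and less RNA per cell cannot be told apart.

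Stratified keratins lay close to the floor in embryoid bodies. Krt5, the type II keratin of basal cells, read 5.37 in the control and 3.86 in the knockout, where it was below the floor, so it was at least 1.56-fold lower. Its type I partner Krt14 read 5.77 in the control and 5.36 in the knockout, a difference of -0.41. Krt4, a mucosal type II keratin, read 5.21 in the control and 4.14 in the knockout, below the floor, and was at least 1.39-fold lower. Its partner Krt13 read 4.71 in the control, at its floor, and 4.0 in the knockout, and no fold is given. With the floor at the 25th percentile, Krt5 and Krt4 differed by -1.51 and -1.07, and 2 keratins were at least 2-fold lower. Basal cell keratin Krt15 differed by -0.09 (4.90 against 4.81). Krt10, a type I keratin of differentiating epidermis, read 7.47 in the control and 7.50 in the knockout, while its partner Krt1 lay below the floor in both. Krt78 read 4.62 in the control and 4.81 in the knockout, above its floor only in the latter, with a bound of 0.10, and Krt17 was below the floor in both.

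Krt5 and Krt14 form the basal pair, and their upstream sequences are shown beside those of Krt8 and Krt18 to compare the same letters in a stratified pair. Build, window and capitals are as above.

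Krt5 (chr15:101712906-101713155, minus strand): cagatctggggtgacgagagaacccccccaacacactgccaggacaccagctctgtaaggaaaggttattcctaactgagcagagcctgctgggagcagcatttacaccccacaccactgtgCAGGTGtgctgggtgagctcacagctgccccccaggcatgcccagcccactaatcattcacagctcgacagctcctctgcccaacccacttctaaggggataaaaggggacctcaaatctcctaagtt

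Krt14 (chr11:100206031-100206280, minus strand): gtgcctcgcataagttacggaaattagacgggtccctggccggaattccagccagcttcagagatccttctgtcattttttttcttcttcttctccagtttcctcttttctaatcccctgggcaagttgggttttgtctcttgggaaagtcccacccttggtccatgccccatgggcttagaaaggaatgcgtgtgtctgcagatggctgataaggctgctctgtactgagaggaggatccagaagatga

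CAGGTG starts 128 bases before the start of Krt5 and does not occur in this window of Krt14 on either strand. Among other stratified keratins with an upstream sequence, it occurs on either strand for Krt10, Krt77, Krt78 and Krt79. It is absent for Krt2, Krt12, Krt13 and Krt76.

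Krt6a, a type II keratin induced in wounded and follicular epithelium, lies outside the rule by its letter. It read 4.71 in the control, at the floor, and 6.03 in the knockout, a 2.50-fold higher value. Its other 2 probe sets lay under the floor in the control and gave bounds of 1.12 and 0.47. Krt6b, its close relative, lay below the floor in both embryoid bodies, and since these genes are near-identical copies their signals may be shared. Among cornified envelope genes, which complete the outer layer of epidermis, 5 of 16 were measured and 1 was at least 2-fold higher, Sprr1a at 1.52, while Lor differed by 0.69. Of 14 stratified epithelial regulators, 10 were measured, with Ovol2 at 1.46 and Klf5 at 1.43 higher, and Pitx1 at -2.11 and Klf4 at -1.31 lower. Trp63, the master regulator of basal keratinocytes, lay below the floor in both embryoid bodies, at 3.30 and 3.34.

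The same comparison in teratomas gave 1 keratin past 2-fold. Of 16 measured keratins, 0 were at least 2-fold higher, against 3.25% of 12197 measured genes, and 1 was at least 2-fold lower, against 1.07%. Over all measured genes 397 were higher and 131 lower, or 374 and 206 after quantile normalization. The median over measured keratins was -0.20, against 0.06 for all measured genes. All 4 measured simple keratins were below 0, with a median of -0.30, and stratified keratins had a median of -0.11 over 8 measured members.

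Krt8 read 10.69 in the control and 9.67 in the knockout teratoma, a difference of -1.02 or 2.03-fold lower. It lies just past the threshold, and the next keratin, Krt5, differed by -0.54. The 3 probe sets of Krt8 differed by -1.02, -1.03 and -0.81, and all carry the suffix of a sequence shared between transcripts or genes. Averaging them gave -0.96 and centring each array on its median gave -0.98, which are under 2-fold, while quantile normalization gave -1.15. Its partner Krt18 read 9.55 in the control and 9.33 in the knockout, a difference of -0.22, smaller than the SD between probe sets. Krt19 read 9.20 in the control and 8.83 in the knockout, a difference of -0.37. Krt7 read 8.18 in the control and 7.94 in the knockout, a difference of -0.23.

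No stratified keratin reached 2-fold between the teratomas. Krt5, Krt14 and Krt15 were lower in the knockout by more than the SD between probe sets, 0.28, although Krt5 and Krt15 have 1 probe set each. Krt14 was read from a probe set with a shared-sequence suffix, and its other measured probe set differed by -0.23, under that SD. Krt5 read 7.55 in the control and 7.01 in the knockout, a difference of -0.54, and Krt14 differed by -0.40 (7.86 against 7.46). Krt15 read 9.88 in the control and 9.54 in the knockout, a difference of -0.34. The mucosal pair Krt4 and Krt13 differed by -0.18 (10.13 against 9.95) and 0.08 (8.0 against 8.08). The epidermal pair Krt1 and Krt10 differed by 0.06 (6.59 against 6.65) and -0.04 (8.17 against 8.14). Krt17, a type I keratin of follicle and injured skin, read 5.71 and 5.81, a difference of 0.10. The order of these keratins depends on the probe set: with the mean of probe sets Krt14 differed by -0.19 and Krt4 by -0.33. The sign for Krt13 turned with quantile normalization and that for Krt10 with median centring.

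**Figure D3:**
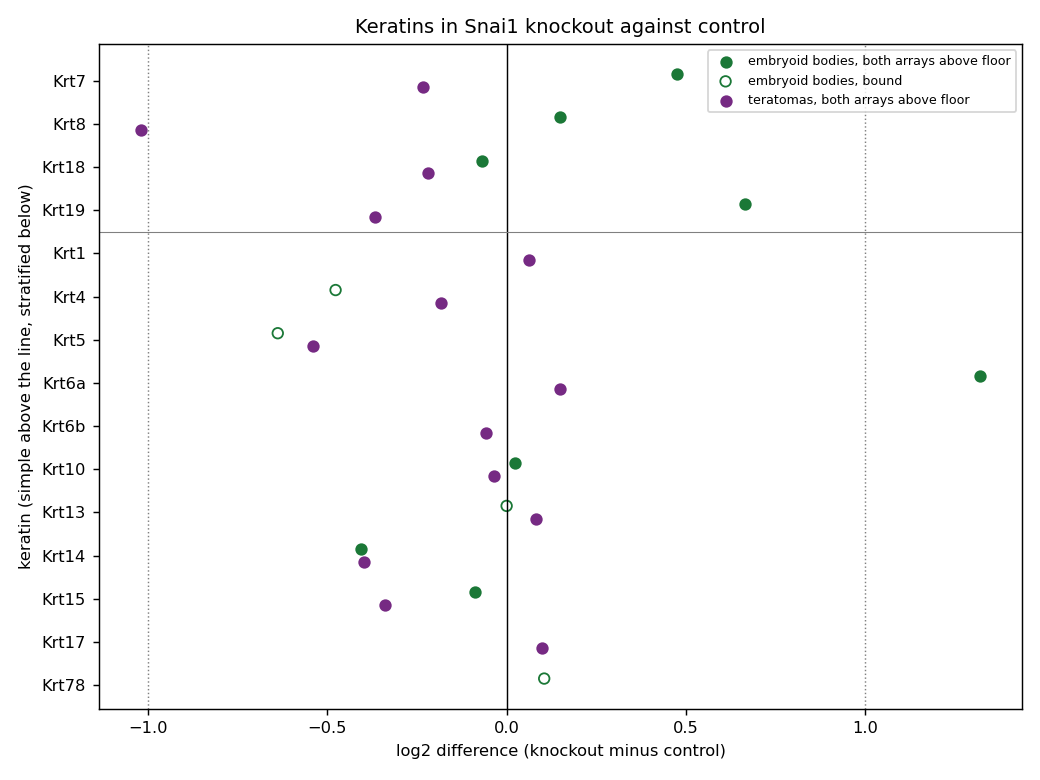
Log2 difference, knockout minus control (horizontal axis), of simple keratins (above the line) and of stratified keratins with Krt6a and Krt6b (below it) in embryoid bodies (green) and teratomas (purple), 1 array per group; open circles are bounds and dotted lines mark 2-fold. Krt8 in teratomas at -1.02 and Krt6a in embryoid bodies at 1.32 are the points past 2-fold.

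Other genes in the knockout teratoma gave context for these values. Of the 10 simple epithelium markers, 8 lay below 0 and 0 passed 2-fold. Their median was -0.47, and their summed level was 12.35 in the control and 11.80 in the knockout. Cldn6 differed by -0.92, Esrp1 by -0.56 and Epcam by -0.37, whereas Elf3 differed by 0.23 and Cldn4 by 0.08. Gut epithelium markers, with 5 of 7 measured, were all below 0, 2 at least 2-fold, led by the gastric genes Gkn1 at -3.03 and Tff1 at -1.83. Their summed level was 11.55 in the control and 9.82 in the knockout. Cdx1 and Vil1 were below the floor in both and Fabp2 in the knockout, so the direction of Fabp2 was fixed in advance. Epidermal and stratified markers had a median of -0.13 over 6 measured of 9, with Col17a1 at -0.70 and Trp63 at -0.51 but Lor at 0.53. Their summed level was 9.91 in the control and 9.76 in the knockout, and Dsc3, Ivl and Flg were below the floor. Extraembryonic endoderm markers, with 8 of 10 measured, had a median of -0.70, with 3 at least 2-fold lower and 1 higher. Their summed level was 10.73 in the control and 11.92 in the knockout, which follows the transthyretin gene Ttr, at 9.19 and 11.74. Of the 8, 6 lay below 0. Cubn and Gata4 were under the floor in both and Apob and Gata6 in the knockout, so Apob and Gata6 had to be lower. The part of these cell types in the keratin differences was not tested.

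Cornified envelope genes in teratomas, with 9 of 16 measured, had 1 member at least 2-fold higher, against 3.25% of all measured genes. This was the crosslinking enzyme gene Tgm1, which read 6.40 in the knockout, with a bound of 1.32. Tgm1 was under its floor in the control, so its direction was fixed in advance. Krtdap differed by -0.52. Of 12 genes listed as plakins and linkers, not all of which bind keratin, 0 passed 2-fold in teratomas. In embryoid bodies 1 was at least 2-fold higher, against 2.18% of all measured genes. It was the plakin gene Eppk1, which differed by 1.30 in embryoid bodies and -0.62 in teratomas. Desmoplakin, Dsp, which ties keratins to desmosomes, differed by -0.06 in embryoid bodies and -0.70 in teratomas, and plakoglobin, Jup, by 0.67 and -0.40. The keratin-associated gene Tchp differed by 0.14 and -0.74. Among 16 non-keratin intermediate filament genes, 0 of 11 measured passed 2-fold in embryoid bodies, where the nuclear lamin gene Lmna differed by -0.91. In teratomas 2 of 13 measured were at least 2-fold higher, against 3.25% of all measured genes, and 0 were lower, against 1.07%. The 2 were the astrocyte filament gene Gfap at 1.44 and the neurofilament gene Nefh at 1.34, while the lamin gene Lmnb1 differed by -0.82.

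The greatest keratin differences lay between teratomas and embryoid bodies, and they separated the simple pair from the stratified class. In control cells, 8 of 18 measured keratins were at least 2-fold higher in the teratoma, against 16.2% of 12956 measured genes, and 2 were at least 2-fold lower, against 19.0%. In knockout cells, 7 of 19 were higher, against 19.8% of 12936, and 3 were lower, against 19.8%. A stratified keratin that reached the floor only in teratomas had to be higher there, so these counts describe the arrays and support nothing further. Without a floor, the median over all 15 stratified keratins was 0.70 in control and 0.64 in knockout cells, and over all 5 simple keratins -0.41 and -1.44. The control comparison uses the control arrays of both tissues and the knockout comparison the knockout arrays, and all 4 arrays also enter the knockout comparisons above. Centring each array on its median moved the median of all measured genes from -0.18 to -0.55 in control and from -0.15 to -0.46 in knockout cells. It changed the split of all genes from 2098 higher and 2456 lower to 1533 and 4100 in control cells, and from 2566 and 2564 to 2036 and 3786 in knockout cells. The keratin split became 6 and 2 in control and 6 and 3 in knockout cells.

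Among simple keratins, Krt18 was 9.10-fold lower in control teratomas and 10.1-fold lower in knockout teratomas than in the matching embryoid bodies. Krt8 was 4.22-fold lower in control and 9.49-fold lower in knockout cells, and its 3 probe sets differed by -1.84 to -2.19 and by -2.82 to -3.47. Krt19 was 1.32-fold lower in control and 2.71-fold lower in knockout cells. Krt7 went the other way, 2.49-fold higher in control and 1.52-fold higher in knockout cells. Simple epithelium markers as a list were lower in teratomas, with 4 of 10 at least 2-fold lower and 1 higher in control cells and 9 of 10 lower in knockout cells. Over all measured genes 19.0% were lower and 16.2% higher in control cells, and 19.8% were lower in knockout cells.

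Among measured stratified keratins, 8 of 8 were higher in the teratoma in control cells, against 5103 of 12956 measured genes. In knockout cells 8 of 9 were, against 5421 of 12936, Krt78 having no direction. Krt1 and Krt17 in both comparisons, and Krt4, Krt5 and Krt13 in knockout cells, were measured only through the teratoma. Their direction was therefore fixed in advance, and the other signs held under the scalings tried. Krt15 was 31.6-fold higher in control and 26.6-fold higher in knockout teratomas. Krt4 was 30.3-fold higher in control and at least 37.2-fold higher in knockout cells, and its other probe set differed by 4.95 and 4.46, both bounds. Krt13 was 9.80-fold higher in control and at least 10.2-fold higher in knockout cells by 1 probe set, while its other 2 probe sets lay below the floor on all arrays. Krt5 was 4.53-fold higher in control and at least 4.86-fold higher in knockout cells, and Krt14 4.28-fold and 4.30-fold. Another Krt14 probe set, without a shared-sequence suffix, gave bounds of 0.98 and 0.73, and the remaining probe set lay below the floor on all arrays. Krt1 was higher by at least 3.68-fold in control and 3.79-fold in knockout cells. Krt17 was just at the threshold, higher by at least 2.0-fold in control and 2.11-fold in knockout cells, and Krt10 just outside it, at 1.62-fold and 1.56-fold. Krt6a, outside the rule, was 14.0-fold higher in control and 6.20-fold higher in knockout cells. Krt6b read 5.24 in the control and 5.19 in the knockout teratoma, with bounds of 0.53 and 0.45.

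**Figure D4:**
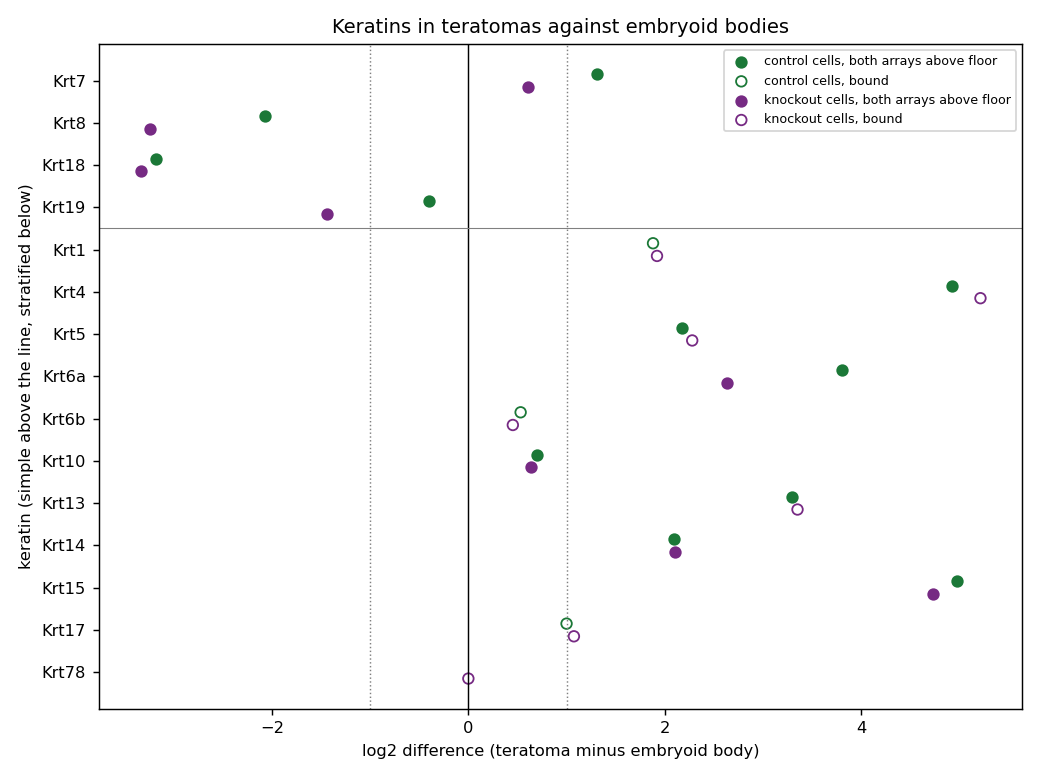
Log2 difference, teratoma minus embryoid body (horizontal axis), of simple keratins (above the line) and of stratified keratins with Krt6a and Krt6b (below it) in control cells (green) and knockout cells (purple), 1 array per group; open circles are bounds and dotted lines mark 2-fold. Krt8 and Krt18 lie at -2.08 to -3.34, and Krt4 and Krt15 near 5.

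Among 9 markers of stratified epithelium other than keratins, 6 were measured between tissues, and 4 of these were at least 2-fold higher in the teratoma in control cells and 3 in knockout cells. In knockout cells Perp at -0.10 and Sprr1a at -0.33 lay below 0. Dsc3, Ivl and Flg were under the floor on all arrays, and Trp63 and Col17a1 were measured only through the teratomas, so they had to be higher there. Trp63 read 6.36 and 5.85 in control and knockout teratomas, above the floor, and below it in both embryoid bodies. The hemidesmosomal collagen gene Col17a1 read 7.25 and 6.55 in teratomas and was below the floor in embryoid bodies. The cornified envelope list had 3 of 8 measured members at least 2-fold higher in control cells and 5 of 10 in knockout cells. For both lists the share over all measured genes was 16.2% in control and 19.8% in knockout cells. Krtdap and Calml3 in both comparisons, and Tgm1 and Cnfn in knockout cells, were measured only through the teratoma and had to be higher there. Ivl, Flg, Sprr1b, Lce1a1, Rptn and Hrnr lay below the floor on all arrays. RNA quality differed with tissue: the 3' minus 5' log2 signal of Gapdh was 0.17 (control) and 0.10 (knockout) in embryoid bodies and 0.65 (control) and 0.40 (knockout) in teratomas. That of Actb was 0.38 (control) and 0.31 (knockout) in embryoid bodies and 1.03 (control) and 0.85 (knockout) in teratomas. The part of RNA quality in the keratin values was not tested.

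Hair and unclassed keratins varied less. Krt81 and Krt83, keratins of the hair shaft, lay above the floor on all arrays, with all differences between -0.67 and 0.28. Krt81 read 6.10 in control and 6.38 in knockout embryoid bodies, and 6.36 in control and 5.99 in knockout teratomas. Krt83 read 6.06 in the control and 6.34 in the knockout embryoid bodies, and 5.70 and 5.67 in the teratomas. Median centring turned the sign of Krt83 between teratomas and that of Krt81 between control tissues. Krt42 read 7.05 and 7.22 in embryoid bodies, control then knockout, and 6.87 and 7.09 in teratomas, although its other probe set lay below the floor on all arrays. Krt80 read 5.38 in the control and 5.68 in the knockout embryoid bodies, and 5.67 and 5.94 in the teratomas, and its tissue difference changed sign under both scalings. Krt71, Krt88 and the lettered Krt33b reached the floor in embryoid bodies only. Krt71 read 4.79 in the control and 5.08 in the knockout, and in teratomas 4.70 and 4.67. Krt88 read 5.31 in the control and 5.40 in the knockout, and in teratomas 5.02 and 4.94. Krt33b read 5.31 in the control and 5.30 in the knockout, and in teratomas 4.41 and 4.35.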

How the data were processed

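Expression was measured on 4 Affymetrix mouse arrays, 1 per group. The authors deposited log2 values per probe set, made with the affy package and RMA, per the submitters' processing notes. Their versions, and whether RMA was run over the arrays jointly, are not stated in the labels. Of 45101 probe sets, 64 were control probe sets and 34945 of the 45037 others named 1 gene in the platform annotation. Entrez numbers of all 44 keratins matched RefSeq (GRCm38.p6), and 0 symbols changed.

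A gene was read from its probe set of highest average value across arrays. Floors, bounds and the 2-fold count are described above; a bound whose sign opposed the measured array was set to 0. Keratin classes, marker lists and members were chosen with earlier results of these data known. Every keratin above the floor on any array is named with values, and up to 6 members per list with the largest knockout difference. Genes below the floor, and some further list members, are named beyond that rule, chosen after their values were seen. Sprr2a1, Prl3d1 and Dsg3 were not analysed here. No test was run, since each group has 1 array. Alternatives covered the probe set, floor, scaling, threshold and lettered keratins. Analysis used Python 3.11.15, pandas 2.3.3 and matplotlib 3.10.9. The counting was run on simulated data with differences well past 2-fold and little noise, which checks only the code.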

Additional observations from a re-analysis of the deposited data

Results flagged for a closer look

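Krt8 and Krt19 were the keratins whose knockout difference pointed in opposite directions in the 2 tissues and differed by at least 1 on the log2 scale. Krt8 differed by 0.15 in embryoid bodies and -1.02 in teratomas, so the teratoma difference minus the embryoid body difference was -1.17. Its embryoid body difference was smaller than the SD between probe sets there, 0.29. Krt19 differed by 0.66 in embryoid bodies and -0.37 in teratomas, which gives -1.03. With 1 array per group, neither difference between tissues was tested. Opposite directions were not particular to these keratins. All 10 simple epithelium markers lay above 0 in embryoid bodies, and in teratomas 8 lay below 0 and 2 above.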

How the results depend on the processing

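Of 144 counts and medians under 10 alternatives, 21 moved, and of 443 differences of single keratins 28 moved by more than the SD between probe sets and 0 reversed a 2-fold difference. In teratomas, the count of keratins lower in the knockout was 0 with the mean of probe sets, without shared-sequence probe sets (which leave out Krt8), with median centring and at a 3-fold threshold. In embryoid bodies, 2 keratins were lower in the knockout with the floor at the 25th percentile or with none, 1 was lower and 1 higher at a 1.5-fold threshold, and 1 was higher with lettered keratins included. Teratoma against embryoid body, the mean of probe sets left 5 keratins higher in control and 4 in knockout cells, with a stratified median of 1.33 in knockout cells. Without shared-sequence probe sets 1 keratin was lower in control cells. A floor at the 25th percentile gave simple medians of -0.41 and -1.44 in control and knockout cells, since Krt20 entered. A floor at the 65th percentile left 4 keratins higher in knockout cells, with a stratified median of 1.22. Without a floor all members entered, the simple medians were again -0.41 and -1.44, and the stratified medians were 0.70 and 0.64. Signal close to the floor limits the stratified keratins of embryoid bodies, and the lack of replicates limits every difference.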
